A study of Mus musculus with 10 samples.

Results

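The gate from G1 to S phase was examined through 10 genes, namely the D-type cyclins Ccnd1, Ccnd2 and Ccnd3, their kinases Cdk4 and Cdk6, the inhibitors Cdkn1a, Cdkn1b, Cdkn2c and Cdkn2d, and Rb1. They were named as parts of this gate, with earlier results of these data known, among 18193 genes that have a probe set of 1 gene symbol on the array. The platform annotation gave them 27 probe sets, 0 of them shared with another gene symbol. Splenic B cells of C57BL/6 littermates aged 12 weeks, either Irf4+/+ (5 arrays) or Irf4-/- (5 arrays), were compared. Irf4 encodes a transcription factor that activated B cells induce, and the labels name no restriction of its loss to B cells. All 10 cultures received the same antibody against CD40 and IL-4 at 20 ng/ml for 3 days, after other cells of the spleen had been depleted magnetically. An unstimulated culture was not analysed here. Whether a genotype's 5 samples are separate mice or cultures is not stated in the labels; the p-values therefore rest on the scatter among these samples, part of which may be technical.

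A resting B cell that is activated must pass this gate to copy its DNA. Mitogens raise D-type cyclins, which bind and activate the kinases CDK4 and CDK6, and these phosphorylate the retinoblastoma protein so that it releases E2F transcription factors. The INK4 inhibitors, encoded by genes such as Cdkn2c and Cdkn2d, bind CDK4 and CDK6 directly, while the Cip/Kip inhibitors p21 (Cdkn1a) and p27 (Cdkn1b) act on cyclin-CDK complexes. Cyclin D2 and cyclin D3 are the D-type cyclins known from B lymphocytes, and CDK6 is the kinase partner that is prominent in blood cells.

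In Irf4-/- samples both kinase genes were lower, and 2 of the 3 cyclin genes and both INK4 genes among the 10 were higher. Cdk6 fell 3.06-fold and Cdk4 1.37-fold, whereas Cdkn2d, Ccnd3, Ccnd2 and Cdkn2c rose 1.51-fold, 1.42-fold, 1.30-fold and 1.29-fold (5 arrays per genotype). Ccnd1, Cdkn1a, Cdkn1b and Rb1 did not pass the test. A gene was called at a limma adjusted p under 0.05 over all 12246 genes tested, and each gene was read from its brightest probe set. By this rule 6 of the 10 genes were called, beside 47.1% of all genes tested, so the count alone does not set these genes apart. The 4 rises stand beside 23.2% of genes called higher, and the 2 falls beside 23.8% called lower. With each array centred on its median, 2311 of all genes were called higher and 3262 lower, in place of 2846 and 2918, and the same numbers of the 10 genes were called in each direction. The arrays of the genotypes did not overlap for 6 of the 10 genes, the same 6 that were called, beside 35.5% of all genes tested. Values are MAS5 signals on a linear scale, and log2 differences (Irf4-/- minus Irf4+/+) and folds are on the log2(signal + 7.9) scale.

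**Figure D1:**
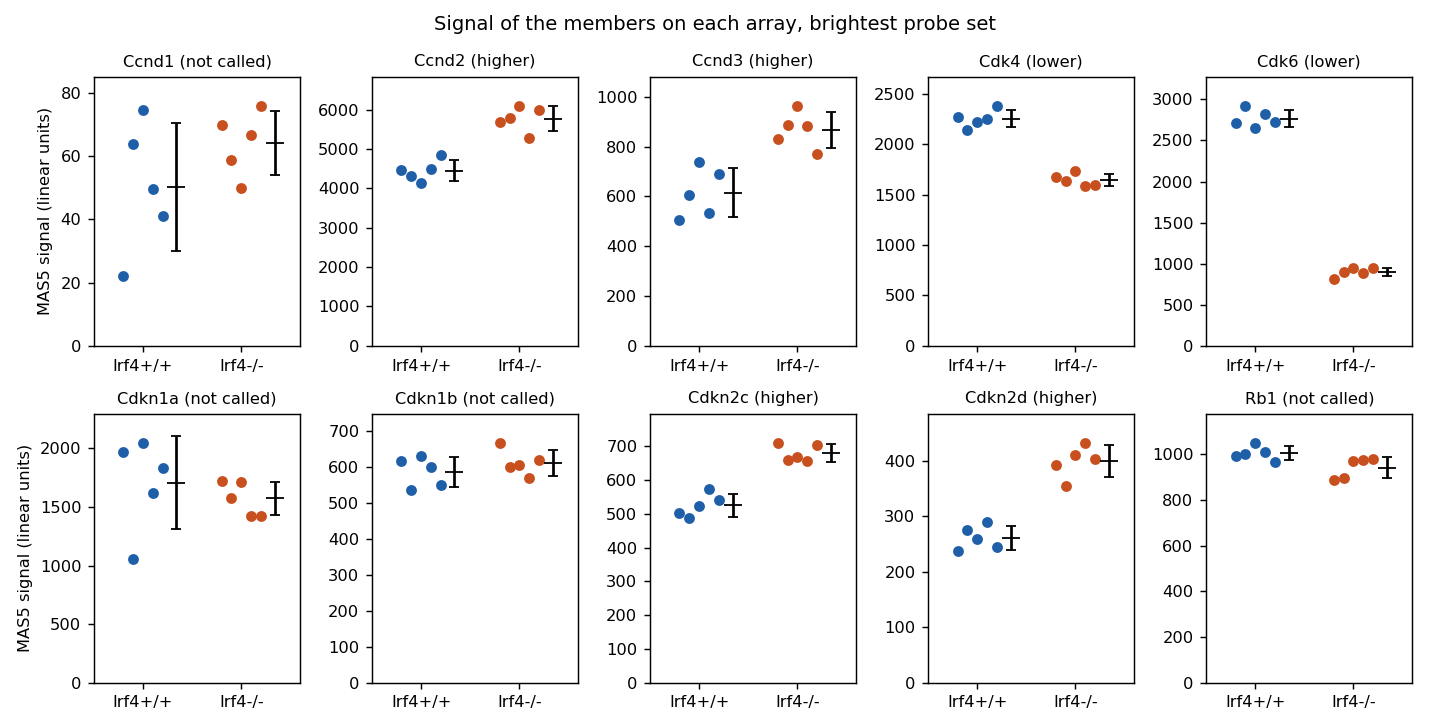
Each panel plots the MAS5 signal (linear units, axis from 0) of 1 gene on the 5 Irf4+/+ and 5 Irf4-/- arrays, with points for arrays and a bar for the mean and SD. The 5 Irf4-/- points of Cdk6 lie between 813.8 and 943.8, all under the lowest Irf4+/+ point of 2653, while those of Ccnd1, Cdkn1a, Cdkn1b and Rb1 overlap.

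The arrays can be read against these markers. The B cell markers Ms4a1, Cd79a, Cd79b, Pax5, Cd22 and Blnk were all detected, and all 6 were called higher in Irf4-/- samples; their summed signal was 23729 to 26324 in Irf4+/+ and 43775 to 47927 in Irf4-/- arrays. All 7 natural killer markers tested were also higher (summed signal 1231 to 1485 against 11334 to 15751), most of it from the granzyme genes Gzma and Gzmb. Of 8 macrophage and monocyte markers 6 were higher and 2 not called (summed signal 501.5 to 591.9 against 2079 to 2591), with Cd14 near the floor at means of 6.16 and 13.7. In the T cell list Cd3e, Cd3g, Cd3d and Cd4 were at the floor in both genotypes, Cd8a was at 81.9 ± 16.3 and 77.2 ± 10.9 (SD, n = 5) and not called, and Thy1 rose 4.26-fold. Of 4 granulocyte markers tested 2 were higher, of 3 dendritic cell markers 2 were higher and 1 was lower, and all 4 plasma cell markers, among them Prdm1, which is also in the list of regulators below, were lower. Some markers had a mean under 26.1, the 40th percentile of all values, in 1 genotype and passed the filter through the other. In Irf4+/+ arrays these were Ncr1 (16.2), Klrk1 (25.2), Klrd1 (22.8), Nkg7 (24.0), Lyz1 (6.72), Chil3 (4.66), S100a8 (18.3) and S100a9 (6.56). In Irf4-/- arrays it was Jchain (21.9). The counts therefore lean towards the direction in which such markers were called. Over all genes tested 23.2% were called higher and 23.8% lower. The control for 18S ribosomal RNA read 69.0 ± 20.2 on Irf4+/+ arrays against 207.1 ± 66.1 on Irf4-/- arrays (SD, n = 5; exact two-sided permutation p = 0.00794, the smallest that 5 against 5 can give; adjusted p = 0.0159 over 6 array measures) on its 3-prime probe set, and its other two probe sets had the same p. The 3-prime to 5-prime signal ratio of Actb, a sign of RNA integrity, was 1.15 ± 0.0259 on Irf4+/+ and 1.10 ± 0.0227 on Irf4-/- arrays (SD, n = 5; exact two-sided permutation p = 0.0238, adjusted p = 0.0357), and that of Gapdh was 0.856 and 0.859 (exact permutation p = 0.873). The Irf4 signal itself was 74.2% of the Irf4+/+ level in Irf4-/- samples, and whether its probe set lies within the disrupted sequence is unknown here, so it does not check the genotype. The part of other cells and of the 18S and Actb differences in the results below was not tested, and in these bulk samples fewer cells of a type and less RNA per cell cannot be told apart.

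The cyclins came first in the order of the pathway. Ccnd2 was measured by 7 probe sets, and all 7 rose. On the brightest its signal was 4475, 4311, 4130, 4497 and 4841 in the Irf4+/+ arrays and 5679, 5790, 6095, 5268 and 5999 in the Irf4-/- arrays. Every Irf4-/- array lay above every Irf4+/+ array. The means were 4451 ± 263 and 5766 ± 324 (SD, n = 5), a log2 difference of 0.37 (SE 0.0554, limma adjusted p = 3.12e-05). The 7 probe sets gave log2 differences from 0.37 to 0.64, the smallest on the brightest probe set, and the genotypes overlapped on none of them.

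Ccnd3 was called higher on 2 of its 3 probe sets, but only the brightest was well above the floor in both genotypes. Its brightest gave 504.8, 606.8, 737.6, 534.9 and 690.3 in the Irf4+/+ arrays and 829.2, 887.8, 964.5, 883.9 and 771.8 in the Irf4-/- arrays. The lowest Irf4-/- array was just above the highest Irf4+/+ array, and the Irf4+/+ arrays were spread widely. The log2 difference was 0.50 (SE 0.0973, limma adjusted p = 0.000421). The other two probe sets passed the filter but had low signals: 1438805_at went from 15.1 ± 7.34 to 44.6 ± 9.52 (SD, n = 5; adjusted p = 0.00207 in the limma fit of every probe set), and 1444323_at from 26.1 ± 10.5 to 37.7 ± 11.4 (adjusted p = 0.24). Every Irf4+/+ signal of 1438805_at was under 26.1, the 40th percentile of all values, so its Irf4-/- arrays carried it past the filter. It is therefore not used as a second support for the rise. Folds at such low signals depend on the pseudocount.

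Ccnd1, the D-type cyclin best known from epithelial cells, had low signals and its probe sets disagreed. Probe set 1448698_at gave 22.1, 64.0, 74.6, 49.8 and 41.2 in the Irf4+/+ arrays and 69.9, 58.8, 49.9, 66.7 and 76.0 in the Irf4-/- arrays, and the groups overlapped. Its log2 difference was 0.38 (95% interval -0.14 to 0.89, limma adjusted p = 0.224). Probe set 1417420_at pointed the other way, from 69.4 ± 15.9 to 37.6 ± 9.86 (SD, n = 5; log2 difference -0.76, adjusted p = 0.00785 in the limma fit of every probe set), and the third, 1417419_at, was below the filter at means of 10.3 and 12.8. The mean of the probe sets that passed gave -0.19 (limma adjusted p = 0.453; 0.09 to 0.548 over all alternatives). No direction can be given for Ccnd1.

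Both kinases that the D-type cyclins activate fell, and Cdk6 fell most among the 10 genes. Its brightest probe set gave 2708, 2922, 2653, 2825 and 2721 in the Irf4+/+ arrays and 813.8, 902.0, 943.8, 891.7 and 943.2 in the Irf4-/- arrays. The Irf4-/- arrays averaged 32.5% of the Irf4+/+ level, a gap far wider than the spread within either genotype. The log2 difference was -1.61 (SE 0.0556, limma adjusted p = 1.06e-12). Of the 12246 genes tested, 82 had a more negative log2 difference, and 88 genes (0.719%) were called lower by at least 3-fold.

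The size of the Cdk6 fall differed between its probe sets, although all 3 were called lower. Probe set 1435338_at went from 1415 ± 75.4 to 617.5 ± 49.5 (SD, n = 5), 2.28-fold. The fainter 1460291_at went from 64.1 ± 6.82 to 30.4 ± 6.39, 1.90-fold (adjusted p = 0.000715 in the limma fit of every probe set). The 95% intervals of the log2 difference were -1.73 to -1.49 for the brightest and -1.33 to -1.05 for 1435338_at, and they did not overlap. A difference between 2 probe sets of 1 gene was not tested further, and the mean of the 3 gave -1.24.

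Cdk4, the other partner of the D-type cyclins, showed a smaller fall on all 3 probe sets. The brightest gave 2274, 2147, 2219, 2252 and 2384 in the Irf4+/+ arrays and 1677, 1640, 1736, 1591 and 1597 in the Irf4-/- arrays. The groups were separate, with each Irf4-/- array under every Irf4+/+ array. The means were 2255 ± 86.6 and 1648 ± 60.2 (SD, n = 5), a log2 difference of -0.45 (SE 0.05, limma adjusted p = 1.32e-06). The probe sets 1422439_a_at and 1422440_at fell 1.42-fold and 1.58-fold. As 1422441_x_at and 1422439_a_at can bind related or alternative transcripts, the third, 1422440_at, is the value free of that (log2 difference -0.66, adjusted p = 7.56e-07 in the limma fit of every probe set).

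**Figure D2:**
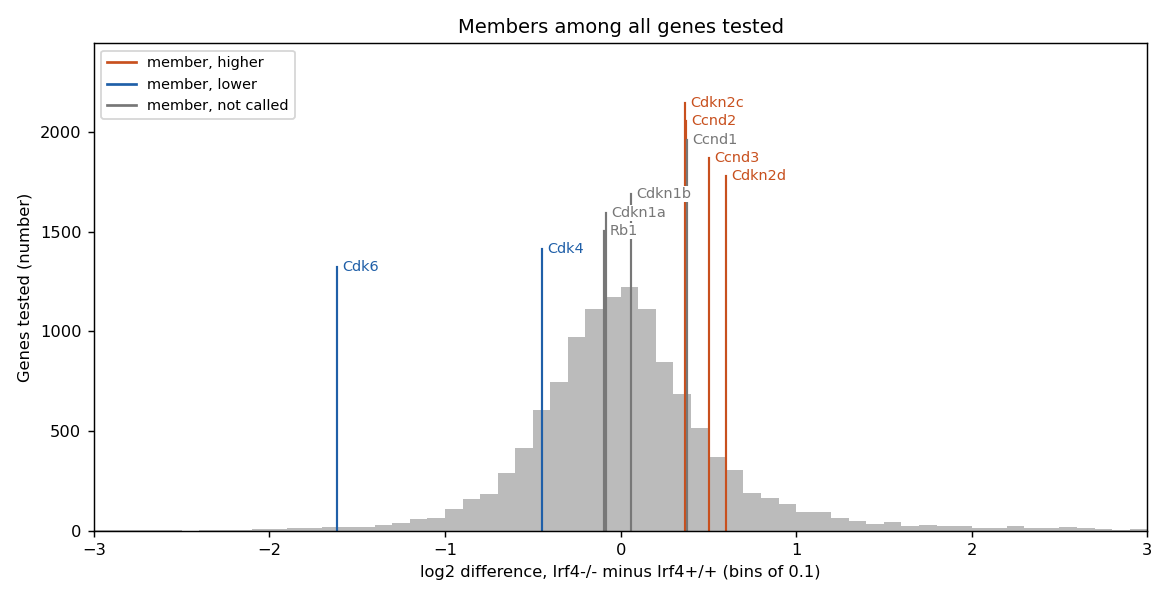
Grey bars count the genes tested by log2 difference (Irf4-/- minus Irf4+/+, bins of 0.1, values from -3 to 3 drawn), and coloured lines mark the 10 genes. Cdk6 at -1.61 stands in the left tail, Cdk4 at -0.45 and the called cyclins and INK4 genes (0.37 to 0.60) stand on the shoulders, and Cdkn1a, Cdkn1b and Rb1 stand near the middle.

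The 2 kinase genes moved together, so the DNA before their start sites is shown. The 250 bases before each RefSeq start site (GRCm38.p6) were searched for the E-box CACGTG, which MYC and related factors bind, for the E2F motifs TTTGGCGC and TTTCCCGC, for GAAA followed after any 2 bases by GAAA, the repeat bound by interferon regulatory factors, and for GGAA followed after any 2 bases by GAAA, the composite motif of ETS factors with IRF4. Both strands were read, and the IRF repeat and the composite motif can overlap. A promoter entry was found for 7 of the 10 genes, in 10 windows, and Ccnd1, Ccnd2 and Rb1 had none. CACGTG was found before Cdk4 and Cdk6, and before none of the other 5 genes with an entry. The E2F letters, the IRF repeat and the composite motif were found in 0 of the 10 windows. Capitals mark CACGTG in the sequences, which are 5′ to 3′ on the plus strand at chr10:127063285-127063534 (Cdk4) and chr5:3343643-3343892 (Cdk6).
Cdk4: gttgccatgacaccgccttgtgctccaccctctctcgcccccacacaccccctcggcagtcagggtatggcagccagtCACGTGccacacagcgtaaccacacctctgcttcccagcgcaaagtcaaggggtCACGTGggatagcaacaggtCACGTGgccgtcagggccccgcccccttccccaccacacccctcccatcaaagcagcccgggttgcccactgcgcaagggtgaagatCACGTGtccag
Cdk6: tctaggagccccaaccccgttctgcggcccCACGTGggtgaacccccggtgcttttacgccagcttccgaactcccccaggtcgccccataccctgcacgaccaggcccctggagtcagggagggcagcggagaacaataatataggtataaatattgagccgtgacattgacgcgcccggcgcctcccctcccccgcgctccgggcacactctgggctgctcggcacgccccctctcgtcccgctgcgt

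The Cdk4 window holds CACGTG 4 times, the nearest ending 6 bases before the start site, and the Cdk6 window holds it 1 time, 215 to 220 bases before the start. Of 32851 promoter windows of this length, 6.02% hold CACGTG at least 1 time and 20 windows (0.0609%) hold it 3 or more times. The IRF repeat was in 2.98% of the windows, the composite motif in 2.3%, TTTGGCGC in 0.417% and TTTCCCGC in 0.895%. These matches describe the letters and are not evidence of binding. Myc, whose protein binds such letters with its partner MAX, fell from 2637 ± 88.7 to 1205 ± 93.6 in the same arrays (SD, n = 5; log2 difference -1.13, limma adjusted p = 1.33e-10), and a link between these values was not tested.

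The INK4 inhibitor genes among the 10 were Cdkn2c and Cdkn2d, and both rose. INK4 proteins compete with D-type cyclins for CDK4 and CDK6. Cdkn2c encodes p18, which is known to restrain the cycle as plasma cells form. Its single probe set gave 501.1, 486.6, 523.8, 571.7 and 539.9 in the Irf4+/+ arrays and 710.0, 658.1, 666.7, 655.0 and 703.3 in the Irf4-/- arrays. The groups were apart, and the log2 difference was 0.37 (SE 0.0633, limma adjusted p = 0.000139). The plasma cell markers were lower in the same Irf4-/- arrays. Sdc1 was lower 2.04-fold, and Jchain went from 980.8 ± 90.9 to 21.9 ± 10.1 (SD, n = 5), a level under 26.1, the 40th percentile of all values, at which a fold depends on the pseudocount.

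Cdkn2d, which encodes p19 of the same family, rose 1.51-fold. It gave 236.9, 275.4, 258.6, 288.7 and 244.4 in the Irf4+/+ arrays and 391.7, 354.5, 411.1, 432.4 and 403.7 in the Irf4-/- arrays. All Irf4-/- arrays were above all Irf4+/+ arrays. The log2 difference was 0.60 (SE 0.0808, limma adjusted p = 1.15e-05), and 1439 of the 12246 genes (11.8%) had a higher one. Cdkn2c and Cdkn2d each had 1 probe set, so no second probe set checks these values.

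The Cip/Kip inhibitors were not called. Cdkn1a, a target of p53, gave 1970, 1057, 2049, 1622 and 1833 in the Irf4+/+ arrays and 1720, 1579, 1712, 1427 and 1428 in the Irf4-/- arrays. The groups overlapped: Irf4+/+ replicate 2 was the lowest of all 10 arrays, and Irf4+/+ replicate 4 also lay under 2 of the Irf4-/- arrays. The log2 difference was -0.08 (95% interval -0.38 to 0.21, limma adjusted p = 0.659), and without Irf4+/+ replicate 2 it was -0.25 with an adjusted p of 0.0205 (limma; 0.0205 to 0.967 over all alternatives), so this 1 array decides the call. The dimmer probe set 1421679_a_at gave -0.29 (adjusted p = 0.126 in the limma fit of every probe set).

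Cdkn1b, the inhibitor p27 of quiescent lymphocytes, gave 616.1, 535.1, 629.0, 599.7 and 548.2 in the Irf4+/+ arrays and 666.6, 598.7, 604.5, 568.8 and 617.7 in the Irf4-/- arrays. The groups overlapped over most of their range. The log2 difference was 0.06 (95% interval -0.08 to 0.21, limma adjusted p = 0.497), so the data bound a change in this probe set to between 0.944 and 1.15 times the Irf4+/+ level. Its second probe set had a low signal (33.9 ± 8.55 against 29.7 ± 5.29; SD, n = 5) and had the opposite sign, and the mean of both gave -0.039.

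Rb1 encodes the retinoblastoma protein, the substrate of the kinases. Its brighter probe set gave 990.6, 1003, 1050, 1011 and 965.8 in the Irf4+/+ arrays and 888.9, 893.8, 971.0, 975.8 and 977.1 in the Irf4-/- arrays. Of the Irf4-/- arrays 2 lay under all Irf4+/+ arrays and the other 3 overlapped with them. The log2 difference was -0.09 (95% interval -0.21 to 0.02, limma adjusted p = 0.187), which bounds the level to between 0.864 and 1.02 times that of Irf4+/+. An exact two-sided permutation test of this gene alone gave p = 0.0317, with no adjustment. A second probe set, 1444400_at, was at the floor (5.98 and 2.62) and was not tested. The array measures RNA, and phosphorylation of the protein is not seen in it.

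Counted by probe set, 25 of the 27 passed the filter on dim signals. Of these 11 were called higher, 7 lower and 7 not called, beside 42.3% of all 22520 probe sets called (21.0% higher and 21.3% lower). The 11 include 1438805_at of Ccnd3, which passed the filter through its Irf4-/- arrays. Several probe sets read the same transcript and are not independent. All tested probe sets of Ccnd2, Cdk4 and Cdk6 had the sign of the brightest, as did those of Ccnd3 and Cdkn1a, and those of Ccnd1 and Cdkn1b split.

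**Figure D3:**
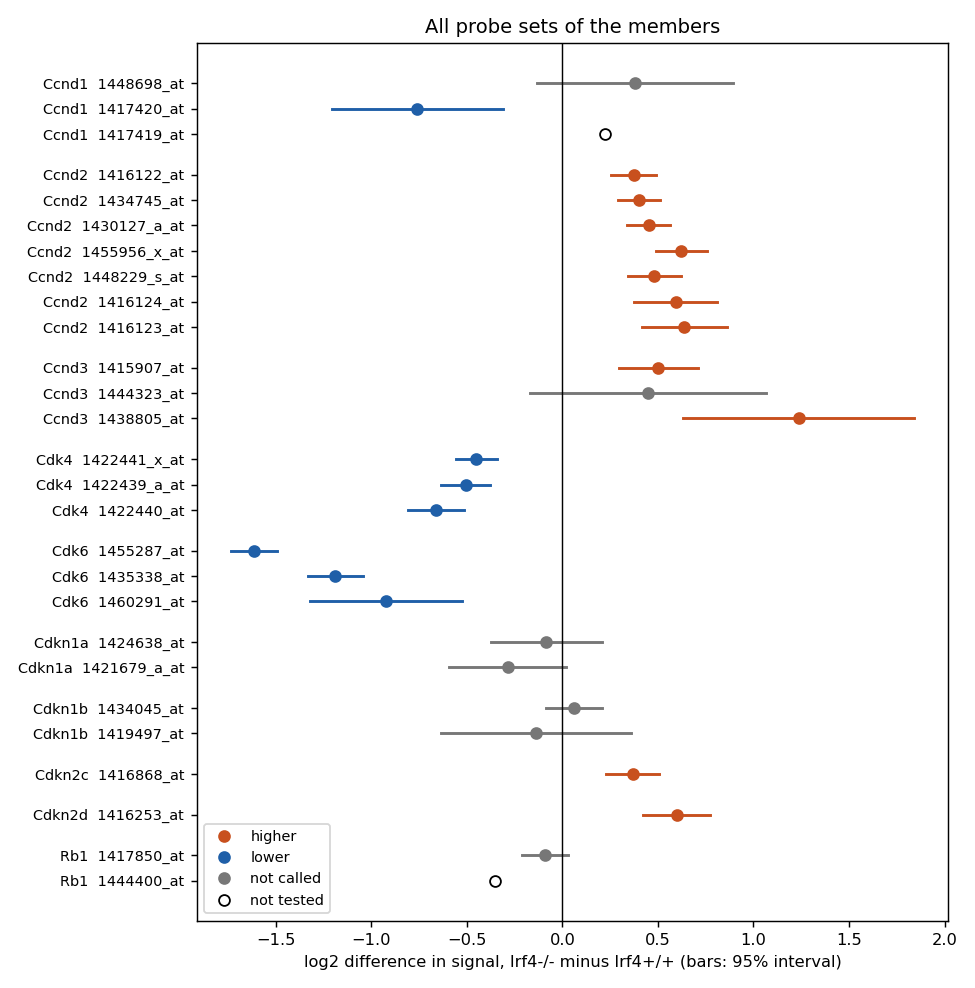
Points give the log2 difference (Irf4-/- minus Irf4+/+) of each of the 27 probe sets, with 95% intervals from the limma fit over all probe sets and open points for the 2 that were too dim to test. The 7 Ccnd2 probe sets lie right of 0, the 6 of Cdk4 and Cdk6 lie left of it, and the Ccnd1 probe sets lie on both sides.

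Genes for the cyclin E and CDK2 step, which follows cyclin D in the cycle, mostly had lower RNA signals. Of 12 genes for this step and for CDK activation 8 fell, 0 rose and 4 were not called, beside 23.8% of all genes tested called lower. The median log2 difference was -0.33, beside 0.0043 over all genes tested. Cdc25a, the phosphatase that activates CDK2, fell from 1796 ± 167 to 1182 ± 107 (SD, n = 5; limma adjusted p = 5.15e-06). Skp2, which marks p27 for destruction, fell from 384.4 ± 29.8 to 252.3 ± 34.1 and the cyclin Ccne2 from 630.3 ± 43.5 to 426.8 ± 41.4 (1.51-fold and 1.47-fold). Ccne1 fell 1.46-fold on 1441910_x_at, but on the probe set left when shared ones were removed its log2 difference was -0.16 (limma adjusted p = 0.15; 2.42e-05 to 0.15 over all alternatives).

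Of 12 genes for the other pocket proteins, E2F and DP factors 2 rose, 5 fell and 5 were not called (median log2 difference -0.19). Over all genes tested 47.1% were called, 23.2% higher and 23.8% lower. E2f2, an E2F of the activating group, rose 2.17-fold from 245.2 ± 17.0 to 548.4 ± 90.8 (SD, n = 5; limma adjusted p = 2.94e-07). E2f8, a repressive E2F that is itself switched on in S phase, fell 1.68-fold from 1001 ± 123 to 591.2 ± 52.3, and the DP partner Tfdp1 fell 1.42-fold. E2f3 fell 1.21-fold, and averaged over its probe sets it was not called (limma adjusted p = 0.0681; 0.00442 to 0.0681 over all alternatives). Rbl1, the pocket protein p107, had a log2 difference of 0.21 (limma adjusted p = 0.0229) and was not called with median centring (0.15), with the mean of its probe sets (0.02), without Irf4+/+ replicate 1 (0.18) or without Irf4-/- replicate 4 (0.16).

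Among 4 other CDK inhibitors 2 rose, 0 fell and 2 were not called. Of all genes tested 47.1% were called and 23.2% were called higher, so this count alone does not set the list apart. Cdkn2b, the INK4 gene for p15, rose 2.90-fold from 67.0 ± 14.2 to 206.8 ± 23.2 (SD, n = 5; limma adjusted p = 2.21e-07). The CDK-binding phosphatase gene Cdkn3 rose 1.34-fold from 299.3 ± 16.4 to 405.7 ± 40.5. Cdkn2a and Cdkn1c had low signals, at 39.9 ± 17.0 and 27.6 ± 15.3 in Irf4+/+ and 44.3 ± 3.76 and 32.5 ± 13.2 in Irf4-/- samples. Cdkn2b is known from macrophages as well as lymphocytes. Beside it 6 of 8 macrophage markers were called higher, of which Lyz1 and Chil3 passed the filter through their Irf4-/- arrays. The part of macrophages in the rise of Cdkn2b was not tested.

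Genes that E2F factors switch on for S phase were lower. Of 15 tested 14 fell, 0 rose and 1, Pcna, was not called (median log2 difference -0.50), beside 23.8% of all genes tested called lower. Mcm6 and Mcm5, subunits of the replicative helicase, fell 1.78-fold and 1.40-fold, and Cdc45 and Cdt1, which load and start that helicase, 1.55-fold and 1.40-fold (limma adjusted p at most 8.12e-07). Under other processing choices the log2 difference came as near 0 as -0.41 for Cdc45 and -0.20 for Cdt1. Both stayed called (limma adjusted p at most 0.00493 and 0.00903 over all alternatives). Pcna, the sliding clamp, was at 11324 ± 321 and 10402 ± 857 (SD, n = 5).

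Among 19 known regulators of the 10 genes 8 rose, 7 fell and 4 were not called (median log2 difference 0.10). Beside these counts, 47.1% of all genes tested were called, 23.2% higher and 23.8% lower. Klf2, which holds lymphocytes in quiescence, rose 4.07-fold from 279.9 ± 56.4 to 1148 ± 107 (SD, n = 5; limma adjusted p = 4.84e-10), and Bach2, a repressor in B cells, rose 1.80-fold. Stat5a, a cytokine-activated factor that can induce D-type cyclins, rose 1.42-fold from 1084 ± 63.5 to 1541 ± 120. Beside Myc the falls included Mdm2 and Foxo1, 1.42-fold and 1.24-fold, which were chosen after their values were seen. Prdm1 of the same list fell more than Mdm2 and Foxo1, 1.80-fold.

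**Figure D4:**
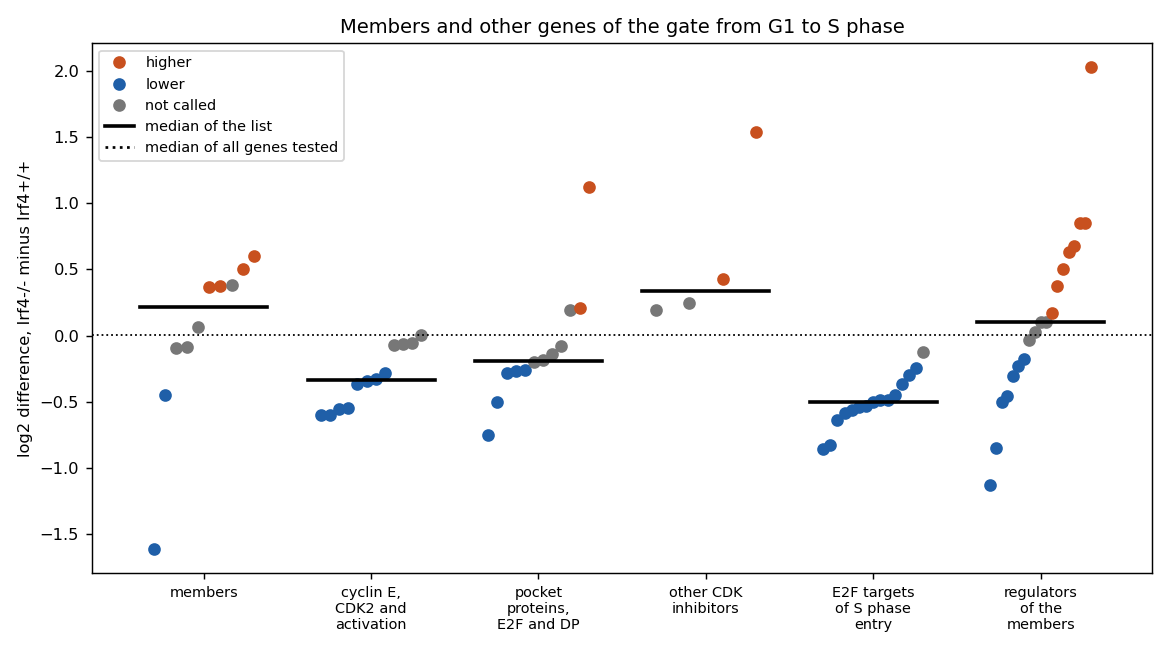
Each point is the log2 difference (Irf4-/- minus Irf4+/+) of 1 gene on its brightest probe set, coloured by its call; thick lines are list medians and the dotted line is the median of all genes tested. The E2F targets lie at or under -0.13, with a median of -0.50, whereas the 10 genes of the gate spread from Cdk6 at -1.61 to Cdkn2d at 0.60.

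The genes whose arrays ran most like Cdk6 and Cdkn2d were sought by the root mean square distance between log2 values over the 10 arrays, each gene centred on its own mean. Nearest to Cdk6 were Tent5c, a poly(A) polymerase (distance 0.0608), the glycosyltransferase gene B3gnt2 (0.075) and Ccp110, for a centriole protein (0.0851), which fell 2.86-fold, 3.25-fold and 2.87-fold. Nearest to Cdkn2d were Adar, an RNA-editing enzyme (0.0539), the ciliary transport gene Ift122 (0.0666) and the SLAM family receptor gene Ly9 (0.0752), which rose 1.53-fold, 1.53-fold and 1.47-fold. The measure mainly reflects the size of the difference between genotypes, as both groups of arrays enter it.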

How the data were processed

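RNA of 10 B cell samples was measured on 1-colour Affymetrix arrays from 6 ug of total RNA. The authors deposited a linear signal intensity per probe set and array. The submitters' processing notes name MAS5, without a version or a scaling target. Each array's mean after removing 2% of values at each end was 250, so no further scaling was applied. Symbols were updated through gene IDs in a RefSeq table (GRCm38.p6), which matched 34741 of 34945 probe sets with 1 symbol; promoter sequences are RefSeq's.

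Values were transformed to log2(signal + 7.9), the 20th percentile of all values being 7.9. Dim probe sets, with a mean log2 value below the 40th percentile, were left out, and the brightest per gene was kept (12246 genes, 5947 only dim). limma 3.58.1 under R 4.3.3 (lmFit, eBayes with trend) fitted genotype, with two-sided p-values and Benjamini-Hochberg adjustment over all genes; probe sets were fitted likewise. The number of arrays limits the precision; the median SD of log2 values was 0.167 in Irf4+/+ and 0.157 in Irf4-/- samples. On simulated data of 12246 genes, few of them changed, the fit recovered 70% of genes changed 1.5-fold, 86% changed 2-fold and 94% changed 4-fold. The adjustment depends on the share of changed genes, and 47.1% of genes were called in the real data. These shares are therefore not the sensitivity of the comparison reported here. The labels do not pair the samples by replicate number, and the main fit used no pairing. The text on sensitivity gives a fit with the replicate number as a block.

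The 10 genes, lists and tests were chosen with earlier results of these data known. By rule the text names all 10 genes, up to 4 genes with the smallest p per list and up to 2 that moved against their list. It also names the 3 nearest patterns, Irf4 and cell type markers. Outside this rule it names Pcna, the uncalled E2F target, and Mdm2 and Foxo1, chosen after their values were seen.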

Additional observations from a re-analysis of the deposited data

Results flagged for a closer look

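Arrays far from the other 4 of their genotype were sought in 92 groups of 5 arrays (the probe sets of the 10 genes that passed the filter, and the named genes of the lists), where chance flags about 1 in 20; 6 stood apart. Ccnd2 on probe set 1416124_at was 568.3 in Irf4-/- replicate 4, against 376.4 to 425.5 in the others. Cdk6 on the fainter 1460291_at was 52.3 in Irf4+/+ replicate 2, against 64.4 to 68.9. Skp2 was 436.1 in Irf4+/+ replicate 2, against 361.5 to 380.9. E2f2 was 388.9 in Irf4-/- replicate 3, against 568.0 to 615.0, still above all Irf4+/+ arrays. E2f3 was 811.3 in Irf4+/+ replicate 1, against 606.2 to 664.2. Myc was 1366 in Irf4-/- replicate 1, against 1141 to 1206.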

How the results depend on the processing

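The 6 called genes of the 10 kept their direction and their call under every alternative run: 2 pseudocounts, 3 filters, 2 scalings, 2 variance models, weights for arrays, the replicate block, 3 probe set choices, the exact permutation test and each array left out. The filters, variance models, replicate block, fit of every probe set and permutation test leave their log2 differences as they were, so direction could not change there. The permutation p was set against 0.05 without adjustment, and for groups that do not overlap it is always 0.00794. With 1 array left out, 6 to 7 of the 10 genes were called (2 to 3 lower), the seventh being Cdkn1a, and 5396 to 5665 genes overall. The log2 difference of Cdk6 ranged from -1.68 to -1.24 over the other alternatives. Signs turned for 2 uncalled genes with the mean of the probe sets, Ccnd1 (-0.19) and Cdkn1b (-0.039). Of 249 alternative values of the 10 genes 245 kept direction and side of the threshold, and of 498 for other named genes 492 did and 6 lost the call, in Ccne1, E2f3 and Rbl1 as given above. The replicate numbers of the titles are not paired by the labels, and deviations of same-numbered arrays correlated at -0.034 to 0.054; with the replicate block the same count of 6 genes was called, and 5677 of all genes. The median of all genes shifted by -0.06 with median centring and -0.03 with quantile normalization. Some values rest on signals near 26.1, the 40th percentile of all values, although they passed the filter. In both genotypes these included Cdkn1c and the fainter probe sets of Ccnd3 and Cdkn1b. In Irf4-/- arrays they included 1460291_at of Cdk6 and 1417420_at of Ccnd1, at means of 30.4 and 37.6.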
